A study of Saccharomyces cerevisiae with 6 samples.

Results

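ADH4, ZPS1, VEL1, YOR387C, DPP1, MNT2, URA10, RTC4, ICY2 and ZRG8 are target genes of the yeast transcription factor Zap1 other than zinc transporters, chosen by symbol. They are 10 of 5449 genes of Saccharomyces cerevisiae on the array, each with 1 probe set, and 0 of the 10 lie on chromosome II. ICY2 (YPL250C) is named ATG41 in the R64 gene table. Zap1 is the zinc-responsive transcriptional activator of budding yeast. It binds zinc-responsive elements in promoters, is most active when cells are short of zinc, and is kept largely inactive in zinc-rich medium. Besides zinc transporters it controls genes for alcohol dehydrogenase, phospholipid turnover, protein mannosylation and cell surface proteins.

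Total RNA came from log-phase cultures of 3 haploid strains, with 2 arrays per strain from separate experiments: BY4741 (wild-type), BY4741 delta eos1 and BY4741 delta izh2, called the eos1 and izh2 mutants here. BY4741, of mating type a, is auxotrophic through defects in HIS3, LEU2, MET17 and URA3, which both deletion mutants share. The product of EOS1 sits in the membrane of the endoplasmic reticulum and is linked to N-glycosylation, and that of IZH2 is a membrane protein linked to zinc metabolism. YPD, a rich medium, was used for all cultures. They were shaken at 150 rpm and 30 degrees Celsius and harvested at OD600 = 1.0, and the labels record no zinc treatment. The labels do not say whether each deletion strain was a single clone. The series' title places the study in zinc homeostasis, so the question for these genes is whether either deletion changed the output of Zap1.

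The values are probe set signals on a linear scale, and the median signal of the 4907 genes tested lay between 554 and 792 on the 6 arrays. EOS1 gave signals of 0.42 and 2.70 in its own deletion and IZH2 gave 3.46 and 1.12 in its own, all below the background of those arrays, 8.67 to 15.2. Background here means, for each array, the 95th percentile over 1746 probe sets naming a gene of another organism. The median log2 fold change of all tested genes was 0.21 for the eos1 mutant against the wild type. It was -0.11 for the izh2 mutant against the wild type and 0.31 for the eos1 mutant against the izh2 mutant. Values after centring each array on its median are therefore given for many genes. Where no centred value is printed, the direction can differ after centring. In the eos1 mutant against the wild type the 352 tested genes of chromosome II had a median of 1.03, against 0.19 elsewhere. All 7 of the 7 a-cell markers tested were called lower in the eos1 mutant (limma, adjusted p under 0.05), as were 0.713% of all tested genes. In the izh2 mutant 0 of 7 were called lower, against 0.0204% of all tested genes. Of 4 alpha-cell markers 1 was tested, SAG1, with a log2 fold change of 0.67 in the eos1 mutant (limma, adjusted p = 0.099). The part of these shifts in the results below was not tested. Precision is limited by the number of arrays, and in RNA from whole cultures fewer cells expressing a gene and less RNA per cell cannot be told apart.

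**Figure D1:**
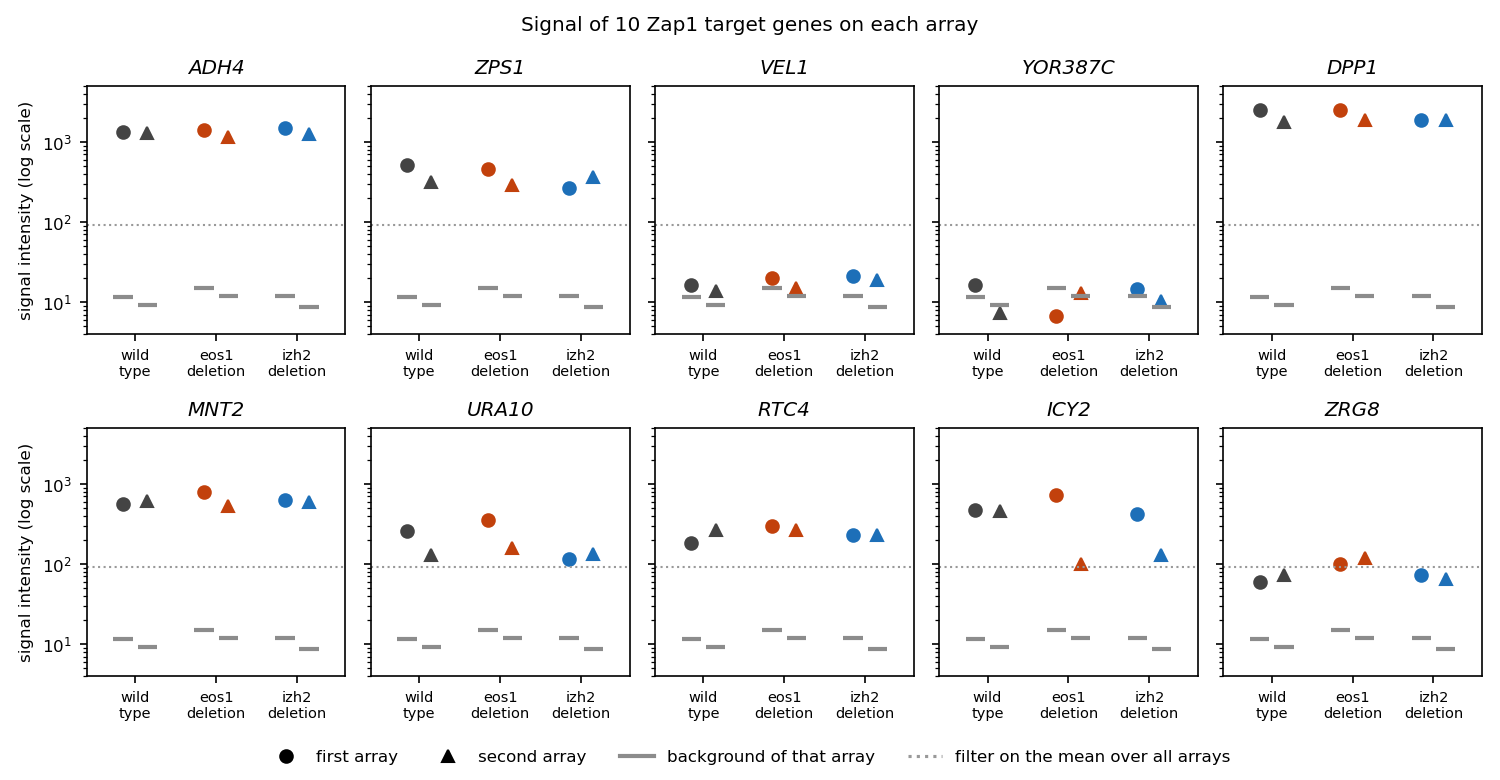
Signal intensity of each of the 10 genes on each array (log scale), by strain, with the first array of a strain as a circle and the second as a triangle, the background of each array as a grey bar and the signal of 91.8 required of the mean over all arrays as a dotted line. ADH4 and DPP1 lie far above background in every strain, VEL1 and YOR387C lie near it, and ICY2 has 1 low array in each deletion.

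Of the 10 genes, 7 passed the filter on dim signals and were tested: ADH4, ZPS1, DPP1, MNT2, URA10, RTC4 and ICY2. In the eos1 mutant against the wild type 0 of these 7 passed an adjusted p under 0.05 (limma), where 7.11% of all tested genes passed, 6.4% higher and 0.713% lower. An unadjusted p under 0.05 was reached by 0 of the 7 and by 21.8% of all tested genes. These shares include chromosome II genes, while 0 of the 7 lie on that chromosome. Fitted without its genes, 59 of 4555 passed the adjusted threshold in this comparison, 38 higher and 21 lower, and 0 of the 7. Against the wild type the izh2 mutant gave 0 of 7, where 0.0204% of all tested genes passed, which is IZH2 itself. There 0 of 7 and 2.14% of all tested genes had an unadjusted p under 0.05. Between the mutants 0 of 7 passed, against 12.6% of all tested genes, 11.9% higher in the eos1 mutant and 0.713% lower. An unadjusted p under 0.05 was reached there by 1 of 7 (URA10) and by 29.4% of all tested genes. The shares between the mutants also include chromosome II genes, whose median log2 fold change there was 1.17, against 0.29 elsewhere. After median centring 0 of 7 passed in each comparison, and ADH4 in place of URA10 had an unadjusted p under 0.05 between the mutants. The shares of all tested genes were then 6.46% (4.22% higher, 2.24% lower), 0.0204% and 10.5% (6.62% higher, 3.91% lower).

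The 7 log2 fold changes ran from -0.78 (ICY2) to 0.36 (URA10) in the eos1 mutant against the wild type, with a median of 0.04, against 0.21 for all tested genes. For the izh2 mutant against the wild type they ran from -0.99 (ICY2) to 0.09 (MNT2), with a median of -0.16, against -0.11 for all genes. These comparisons share the wild-type arrays. Between the mutants they ran from -0.10 (ADH4) to 0.92 (URA10), with a median of 0.21 against 0.31. With 2 arrays per strain the 95% confidence interval of the level relative to the wild type in the eos1 mutant ran from 0.690 to 1.41 for ADH4, the narrowest of the 7, and from 0.184 to 1.84 for ICY2, the widest.

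**Figure D2:**
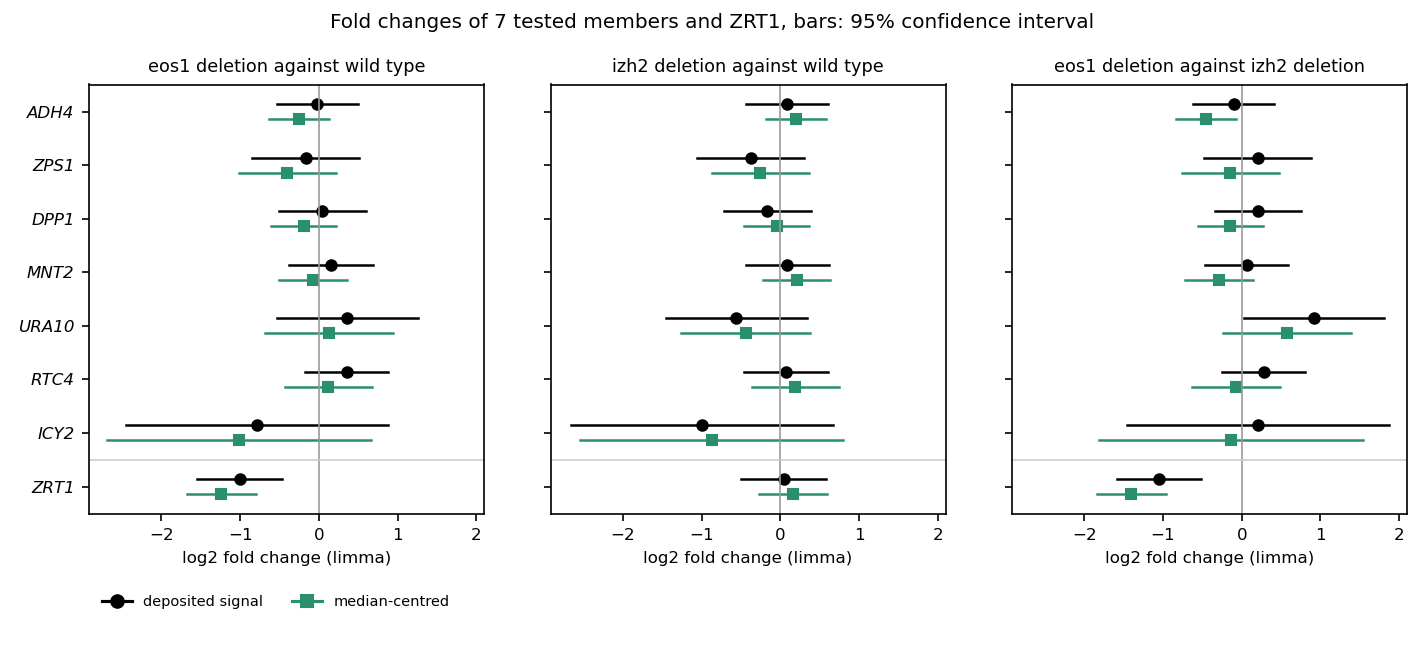
Log2 fold change of the 7 tested genes and of the transporter gene ZRT1 in each comparison, with bars for the 95% confidence interval, from the deposited signal (black circles) and after median centring (green squares). Every black interval of the 7 genes spans 0 except that of URA10 between the mutants, which runs from 0.03 to 1.81, and every green one does except that of ADH4 in the same panel.

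ADH4 (YGL256W) encodes an alcohol dehydrogenase isozyme that yeast makes when zinc is scarce. Its signal was 1314 and 1277 in wild-type cells, 1426 and 1149 in the eos1 mutant and 1488 and 1270 in the izh2 mutant. The strains overlapped, and the wild-type arrays lay between those of the eos1 mutant. Its level in the eos1 mutant was 0.988 times that of the wild type, with a 95% confidence interval from 0.690 to 1.41 (limma, adjusted p = 0.97). The izh2 mutant had 1.06 times the wild-type level, from 0.742 to 1.52 (adjusted p = 0.998). A change of 2-fold in either direction lies outside both intervals. After median centring the log2 fold change was -0.25 in the eos1 mutant (adjusted p = 0.43) and -0.45 between the mutants, where the interval ran from -0.83 to -0.07 but the adjusted p was 0.13.

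Of the other 8 alcohol dehydrogenase genes examined 7 were tested, and 0 passed in any of the 3 comparisons, on the deposited signal or after median centring. Of all tested genes 7.11% passed in the eos1 mutant, 0.0204% in the izh2 mutant and 12.6% between the mutants, or 6.46%, 0.0204% and 10.5% after centring. ADH1 and ADH3, for the main cytosolic and mitochondrial enzymes, are lowered by Zap1 in zinc-poor cells, opposite to ADH4. ADH1 had log2 fold changes of -0.06 in the eos1 mutant (adjusted p = 0.82) and -0.10 in the izh2 mutant (adjusted p = 0.998). For ADH3 they were -0.05 and -0.27.

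MNT2 (YGL257C), a mannosyltransferase that extends O-linked glycans, lies beside ADH4. Its signals were 561 and 605 in wild-type cells, 783 and 536 in the eos1 mutant and 639 and 600 in the izh2 mutant. The eos1 mutant arrays lay on either side of all the others. The level in the eos1 mutant was 1.11 times that of the wild type (adjusted p = 0.75), a log2 fold change of 0.15 with a 95% confidence interval from -0.38 to 0.68, which turned to -0.078 after median centring. The izh2 mutant had 1.06 times the wild-type level (0.737 to 1.53). MNN1 and MNT3, which act on the same kind of glycan chains, had log2 fold changes of -0.46 (adjusted p = 0.34) and 0.06 (adjusted p = 0.91) in the eos1 mutant.

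VEL1, MNT2, ADH4 and the high-affinity zinc transporter gene ZRT1 follow each other on the left arm of chromosome VII, all as Zap1 targets. ZRT1 had signals of 1301 and 920 in wild-type cells, 572 and 517 in the eos1 mutant and 1097 and 1158 in the izh2 mutant. It was the lower neighbour: both eos1 mutant arrays lay below all 4 others, and its log2 fold change was -1.01 (95% confidence interval -1.55 to -0.47, adjusted p = 0.033), a call lost without any single array except the second wild-type one (adjusted p = 0.068 to 0.17), with only the arrays of these strains (adjusted p = 0.067) and without chromosome II genes (adjusted p = 0.081). The interval of ADH4 for the same comparison, -0.53 to 0.50, overlaps that of ZRT1 by little. Within arrays, where any scaling factor cancels, the log2 ratio of ADH4 to ZRT1 was 0.01 and 0.47 in wild-type cells, 1.32 and 1.15 in the eos1 mutant and 0.44 and 0.13 in the izh2 mutant. Only its change between strains can be read, since signals of different probe sets are not comparable. That ratio was 1.99 times as high in the eos1 mutant as in the wild type and did not overlap, and 2 arrays against 2 allow no exact permutation p below 0.333.

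The ratio to ZRT1 was higher in the eos1 mutant for all 7 tested members, by 0.23 (ICY2) to 1.37 (URA10) on the log2 scale, and for 6 of them, all except ICY2, the arrays did not overlap. Over the 4906 tested genes other than ZRT1 the ratio was higher for 99.2%, without overlap for 97.7%, with a median change of 1.22, so the members' count lies near that of all genes. In the izh2 mutant against the wild type it was higher for 3 members and lower for 4. The arrays did not overlap for 0 of the 3, against 0.978% of all genes, and for 3 of the 4, ZPS1 (-0.42), DPP1 (-0.21) and URA10 (-0.60), against 28.3%. ZRT1 was chosen for this with its fall in the eos1 mutant known, so these values describe unequal change and test nothing. On the far side of ZRT1, the sulfite-response activator gene FZF1 and the hexokinase gene HXK2 had log2 fold changes of 0.27 (adjusted p = 0.60) and -0.08 (adjusted p = 0.75) in the eos1 mutant. Of the 16 nearest protein-coding genes beside the 10 members, 14 were tested. ZRT1 was the 1 called in the eos1 mutant, where 7.11% of all tested genes were called.

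**Figure D3:**
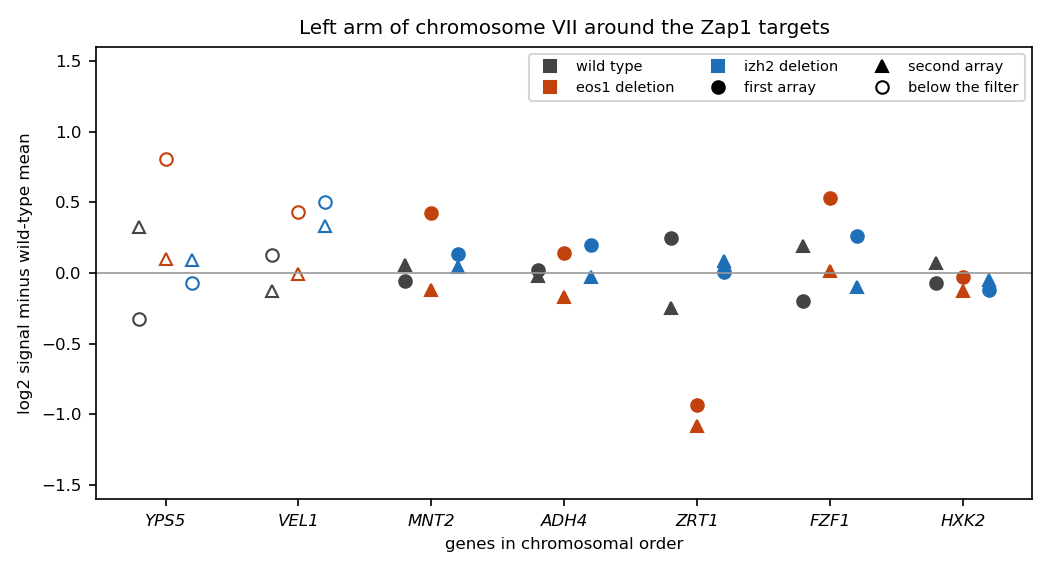
Log2 signal of each array minus the wild-type mean for genes of the left arm of chromosome VII in chromosomal order, by strain (colour) and array (circle, first; triangle, second), with open symbols for genes below the filter. Only ZRT1 has both eos1 mutant arrays far below the others, at about 1 log2 unit.

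ZPS1 (YOL154W), a secreted protein related to zinc metalloproteases and among the genes most strongly raised by zinc shortage, had signals of 518 and 320 in wild-type cells, 457 and 287 in the eos1 mutant and 268 and 369 in the izh2 mutant. All 3 strains overlapped. The level was 0.889 times that of the wild type in the eos1 mutant (95% confidence interval 0.556 to 1.42, adjusted p = 0.78) and 0.772 times in the izh2 mutant (0.482 to 1.24, adjusted p = 0.998). Its arrays differed 1.62-fold within the wild type, more than those of 89.9% of tested genes.

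DPP1 (YDR284C) encodes the diacylglycerol pyrophosphate phosphatase of the vacuolar membrane. Signals were 2518 and 1768 in wild-type cells, 2496 and 1891 in the eos1 mutant and 1885 and 1880 in the izh2 mutant. The wild-type and eos1 mutant arrays covered nearly the same range. Its level was 1.03 times that of the wild type in the eos1 mutant (0.702 to 1.51, adjusted p = 0.93) and 0.892 times in the izh2 mutant (0.609 to 1.31, adjusted p = 0.998). LPP1, a second lipid phosphatase of this kind, had log2 fold changes of 0.38 (adjusted p = 0.33) and 0.02.

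RTC4 (YNL254C), a gene of poorly known function, is named for restriction of telomere capping. Its signals were 185 and 264 in wild-type cells, 299 and 267 in the eos1 mutant and 233 and 232 in the izh2 mutant. It was the 1 tested member whose eos1 mutant arrays both lay beyond the wild-type arrays, a pattern that 50.7% of all tested genes showed in that comparison. The level was 1.28 times that of the wild type (0.884 to 1.84, adjusted p = 0.43), a log2 fold change of 0.35 that was 0.12 after median centring. The izh2 mutant had 1.05 times the wild-type level (0.729 to 1.52, adjusted p = 0.998).

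URA10 (YMR271C) encodes the minor isozyme of orotate phosphoribosyltransferase, an enzyme of pyrimidine synthesis. Its signals were 257 and 132 in wild-type cells, 353 and 158 in the eos1 mutant and 117 and 133 in the izh2 mutant. The first array was 1.95-fold above the second in the wild type and 2.22-fold in the eos1 mutant, and the izh2 mutant arrays lay together near the lower wild-type value. Between the mutants the log2 fold change was 0.92 (95% confidence interval 0.03 to 1.81, unadjusted p = 0.044, adjusted p = 0.16), rank 1360 of 4907 by p, and 0.57 after median centring (adjusted p = 0.37). It passed without the second eos1 mutant array (1.4985, adjusted p = 0.017), without the first or second wild-type array (adjusted p = 0.029 and 0.023) and with only the arrays of these strains (adjusted p = 0.026), and it was 0.35 without the first eos1 mutant array. URA10, RTC4 and DPP1 were the 3 of 7 members whose arrays did not overlap between the mutants, against 61.1% of all tested genes.

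Against the wild type, URA10 had log2 fold changes of 0.36 in the eos1 mutant (adjusted p = 0.64) and -0.56 in the izh2 mutant (adjusted p = 0.998). URA5, for the major isozyme, had -0.07 (adjusted p = 0.81) and -0.01 (adjusted p = 0.998). Of 8 tested genes of pyrimidine synthesis and cytidine nucleotide formation, URA10 included, 0 passed in any comparison on the deposited signal. Of all tested genes 7.11% passed in the eos1 mutant, 0.0204% in the izh2 mutant and 12.6% between the mutants. URA4, for dihydroorotase, had a log2 fold change of -0.65 in the eos1 mutant (limma, adjusted p = 0.063). It passed after median centring (-0.88, adjusted p = 0.018), where 2.24% of all tested genes were called lower, and after quantile normalization (-0.80, adjusted p = 0.025). URA1, for dihydroorotate dehydrogenase, and URA4 were the 2 of 8 lower in the eos1 mutant between the mutants after median centring. Of all tested genes 3.91% were lower there. URA3, the disrupted marker gene of BY4741, did not pass the filter.

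ICY2 (YPL250C, ATG41), a gene linked to autophagy, differed more between the arrays of each mutant than between the mean levels of the strains. Its signals were 469 and 464 in wild-type cells, 726 and 101 in the eos1 mutant and 420 and 131 in the izh2 mutant. The second array of each deletion was low, while the first lay near or above the wild type. The arrays of the eos1 mutant differed 7.15-fold, the 2nd largest such difference among 4907 tested genes, and those of the izh2 mutant 3.21-fold, the 6th largest. In the wild type they differed 1.01-fold, and 3.59% of tested genes differed less.

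The fold changes of ICY2 carry that spread. They were -0.78 in the eos1 mutant (95% confidence interval -2.44 to 0.88, adjusted p = 0.59) and -0.99 in the izh2 mutant (-2.65 to 0.67, adjusted p = 0.998). With the first eos1 mutant array left out the former was -2.20 (adjusted p = 0.026), and with the second left out it was 0.64 (adjusted p = 0.45). Between the mutants it was 0.21, and 1.63 with that second array left out (adjusted p = 0.036). Both izh2 mutant arrays lay below both wild-type arrays, and 28.1% of all tested genes did not overlap, in either direction, in that comparison. ICY1, a gene related to ICY2, had signals of 1654 and 1074 in wild-type cells, 2734 and 1027 in the eos1 mutant and 1037 and 668 in the izh2 mutant, with log2 fold changes of 0.33 (adjusted p = 0.69) and -0.68 (adjusted p = 0.998).

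**Figure D4:**
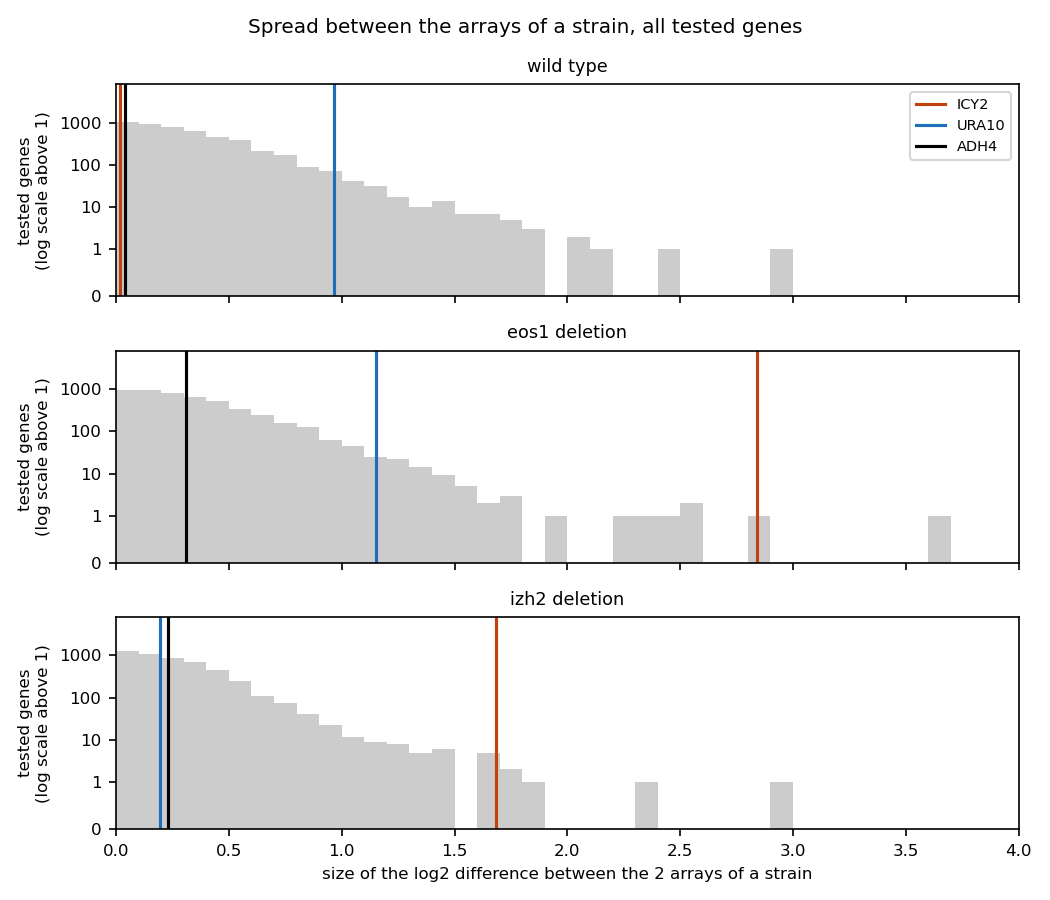
Histograms of the size of the log2 difference between the 2 arrays of each strain over the 4907 tested genes (count axis logarithmic above 1), with lines for ICY2, URA10 and ADH4. ICY2 lies at the left edge in the wild type, at 0.02, and in the far right tail in both deletions, at 2.84 and 1.68.

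The first array was the higher one for 7 of the 7 tested members in the eos1 mutant, where this held for 80.5% of all tested genes. It was higher for 5 of 7 in the wild type and for 5 of 7 in the izh2 mutant, against 59.98% and 61.5% of all genes. Across the 6 arrays, with each centred on its median, the log2 signals of the 21 pairs of tested members correlated with a median r of 0.25, from -0.81 (DPP1 and RTC4) to 0.87 (ZPS1 and DPP1). ADH4 and MNT2, the neighbours, had r = 0.78. ADH4 had r = 0.84 with ZRT1, and URA10 had -0.34. The genes whose profile was most like the mean of the 7 standardised profiles were HSH49 (r = 0.989), NVJ3 (r = 0.989) and MRM1 (r = 0.988). These are descriptions over 6 arrays that share strains and scale.

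VEL1, YOR387C and ZRG8 had mean signals below the filter of 91.8 and were not tested. VEL1 (YGL258W), named for velum formation, and YOR387C, its paralogue, are induced in zinc-poor cells. VEL1 had signals of 16.3 and 13.7 in wild-type cells, 20.1 and 14.9 in the eos1 mutant and 21.1 and 18.8 in the izh2 mutant, between 1.25 and 2.16 times the background of the array. YOR387C had 16.4 and 7.33 in wild-type cells, 6.73 and 12.9 in the eos1 mutant and 14.7 and 10.3 in the izh2 mutant, above background on 4 of 6 arrays. No fold is given for either. Neither gene reached a signal of 91.8 on any array.

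ZRG8 (YER033C), named as a zinc-regulated gene, lay 5.15 to 10.03 times background on the 6 arrays but below the filter. Its signals were 59.0 and 74.0 in wild-type cells, 100.1 and 118.9 in the eos1 mutant and 73.7 and 64.5 in the izh2 mutant. Both eos1 mutant arrays were the highest of the 6. Fitted with no filter on dim genes, its log2 fold change was 0.72 in the eos1 mutant (95% confidence interval 0.11 to 1.34, adjusted p = 0.16), or 0.49 relative to the median of all genes, and 0.06 in the izh2 mutant (adjusted p = 0.998). Between the mutants it was 0.66 (unadjusted p = 0.037, adjusted p = 0.15). ZRG8 was the 1 of the 10 genes with an unadjusted p under 0.05 (limma) against the wild type, at 0.026, rank 851 of 5449. Among the 4907 genes above the filter 21.8% had one in the eos1 mutant. Arrays did not overlap, in either direction, for 50.7% of those genes in that comparison and for 61.1% between the mutants.

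ZAP1 itself had signals of 85.8 and 109.0 in wild-type cells, 149.9 and 147.7 in the eos1 mutant and 132.2 and 138.8 in the izh2 mutant, higher on all 4 deletion arrays than on the wild-type arrays. Against the wild type, arrays did not overlap, in either direction, for 50.7% of all tested genes in the eos1 mutant and 28.1% in the izh2 mutant. The log2 fold changes of ZAP1, 0.62 (limma, adjusted p = 0.21) and 0.49 (adjusted p = 0.998), did not pass. After median centring they were 0.39 (adjusted p = 0.43) and 0.60 (adjusted p = 0.999, unadjusted p = 0.047). Of the 9 tested genes of zinc transport and ZAP1, 1 was called lower in the eos1 mutant, ZRT1, as were 0.713% of all tested genes. In the izh2 mutant 0 of the 9 passed, against 0.0204% of all tested genes. Between the mutants ZRT1 fell too, by 1.05 on the log2 scale (adjusted p = 0.017, and above 0.05 without any single array of the deletions). After median centring 3 of the 9 were called lower in that comparison, ZRT1, FET4 and ZRC1, as were 3.91% of all tested genes. FET4 lay at the threshold (limma, adjusted p = 0.04998). In the eos1 mutant against the wild type ZRT1 alone of the 9 was called lower after median centring, as were 2.24% of all tested genes.

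Tested too were 15 other genes linked to Zap1, from the membrane protein genes IZH1 and IZH4 to ADH1 and ADH3. Of these 1 was called higher in the eos1 mutant and 0 lower, where 6.4% of all tested genes were called higher and 0.713% lower. The median log2 fold change of the 15 was 0.09, or -0.15 after median centring. This median takes in ADH1 and ADH3, which Zap1 lowers, so it does not give a direction of Zap1 output. The gene that rose was the repressor gene NRG2 (1.01, limma, adjusted p = 0.021), which lies on chromosome II. This rise was no larger than the median of chromosome II genes in the same comparison, 1.03. Whether NRG2 changed apart from its chromosome was not tested. NRG2 missed the threshold after median centring (adjusted p = 0.075) and quantile normalization (adjusted p = 0.092), and when the second wild-type array or either array of the eos1 mutant was left out (adjusted p = 0.060 to 0.063). IZH4 had -1.02 (adjusted p = 0.11), and -1.54 to -0.51 when single arrays were left out, passing with either the second wild-type array (adjusted p = 0.012) or the first eos1 mutant array (adjusted p = 0.025) omitted. It passed after median centring (-1.26, limma, adjusted p = 0.031), where 2.24% of all tested genes were called lower, and after quantile normalization (-1.27, adjusted p = 0.033). After median centring IZH1 and IZH4 were both called lower in the eos1 mutant than in the izh2 mutant (adjusted p = 0.019 and 0.028), as were 3.91% of all tested genes. Of the 15, 0 passed in the izh2 mutant, against 0.0204% of all tested genes. Between the mutants 2 were higher in the eos1 mutant, NRG2 by 0.97 (adjusted p = 0.016) and CTT1, for cytosolic catalase, by 1.84 (adjusted p = 0.013). Of all tested genes 11.9% were higher in that comparison. The rise of NRG2 was again no larger than the median of chromosome II genes, 1.17 between the mutants. There NRG2 missed the threshold after median centring (adjusted p = 0.12) and quantile normalization (adjusted p = 0.16), and when the first eos1 mutant array or either izh2 mutant array was left out (adjusted p = 0.052 to 0.14). Leaving out the first eos1 mutant array brought CTT1 to 1.27 (adjusted p = 0.088), and leaving out the second izh2 mutant array to 1.53 (adjusted p = 0.15).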

How the data were processed

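Transcript levels were measured in 3 strains with 2 arrays each (Affymetrix Yeast Genome 2.0), grouped by the titles. Each file deposited by the authors holds an intensity for every probe set on a linear scale, made with GCOS per the submitters' processing notes, with statistics in GeneSpring 7.3.1 per the series' design text. How arrays were scaled, and the GCOS version, are not given in the sources used here. Of 10928 probe sets 5498 name 1 S. cerevisiae gene, through the platform annotation and the R64 gene table, used for names, chromosomes and gene order. For 47 genes with several probe sets the one with the highest mean log2 signal was used.

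Signals were floored at 1, taken to log2 and fitted without further normalization with limma 3.58.1 in R 4.3.3 (eBayes with an intensity trend, all 6 arrays, 3 residual and 7.41 prior degrees of freedom). Genes entered the tests where the mean log2 signal was above the 95th percentile (6.52, a signal of 91.8) of probe sets naming no S. cerevisiae gene, which kept 4907 genes. Tests were two-sided, with Benjamini-Hochberg adjustment over all tested genes and a threshold of 0.05. The fit was tested on simulated data. The labels call the experiments independent, so p-values measure the spread between them as far as the labels go. Alternatives were median centring, quantile normalization, a floor of 16, no filter or the 99th percentile, no trend, only the arrays of 2 strains, mean probe sets, no chromosome II genes, a replicate block, and leaving out each array. The named genes are all 10 members, of the context lists the genes called and up to 2 others with the smallest p, and the 3 genes most correlated with the mean member profile. Outside this rule HXK2, FZF1, MNT3, URA5, ICY1, ADH1, ADH3 and PHR1 were named after their values were seen. Members and lists were chosen with earlier results of these data known. No promoter or protein sequence was used here.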

Additional observations from a re-analysis of the deposited data

How the results depend on the processing

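Under every alternative run 0 members were called in the izh2 mutant against the wild type. Leaving out single arrays gave 0 to 1 called members in the eos1 mutant against the wild type (ICY2, without the first eos1 mutant array) and 0 to 2 between the mutants (URA10, and ICY2 with it without the second eos1 mutant array). Only the arrays of the 2 strains gave 1 between the mutants (URA10). The 99th percentile filter, a signal of 1707, left DPP1 as the 1 member tested.

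Over all genes 349 were called in the eos1 mutant against the wild type, 1 in the izh2 mutant and 617 between the mutants. The stricter filter gave 95, 4 and 139, with fewer genes tested. Without chromosome II genes 59 and 250 were called in the comparisons with the eos1 mutant, and with only the arrays of the 2 strains 224 against the wild type. Leaving out single arrays gave 159 (first eos1 mutant array) to 413, 1 to 25 (second wild-type array), and 75 (second izh2 mutant array) to 875. The called share that was higher went from 314 of 349 to 207 of 317 after median centring, and between the mutants from 582 of 617 to 325 of 517. The difference between the members' median and that of all genes, -0.17, -0.06 and -0.11 in the same order, moved when single arrays were left out, from -0.27 to 0.094 (without the second eos1 mutant array) for the eos1 mutant against the wild type.

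Directions of uncalled members turned with scaling. After median centring and quantile normalization the log2 fold changes in the eos1 mutant against the wild type were -0.19 and -0.14 for DPP1 and -0.078 and -0.10 for MNT2, and -0.012 for URA10 after quantile normalization. Between the mutants they were -0.14 and -0.14 for DPP1, -0.28 and -0.31 for MNT2, -0.071 and -0.19 for RTC4, -0.15 and -0.23 for ZPS1 and -0.14 and -0.27 for ICY2. Leaving out single arrays turned further signs. The ranges in the eos1 mutant against the wild type were -0.21 to 0.30 (DPP1), -0.17 to 0.14 (ADH4), -0.12 to 0.43 (MNT2), -0.21 to 0.94 (URA10), -0.52 to 0.18 (ZPS1) and -2.20 to 0.64 (ICY2). In the izh2 mutant they were -0.42 to 0.090 (DPP1), -0.029 to 0.20 (ADH4) and -0.18 to 0.33 (RTC4), and between the mutants -0.26 to 0.053 (ADH4), -0.21 to 0.34 (MNT2), -0.13 to 0.54 (ZPS1) and -1.21 to 1.63 (ICY2). In the izh2 mutant against the wild type the ranges of the uncalled ZRT1, NRG2 and IZH4 were -0.21 to 0.29, -0.12 to 0.20 and -0.51 to 0.15, and URA4 was at 0.013 after quantile normalization. The cause was not tested.

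Whether the replicate numbers pair arrays across strains is not known. Over 4907 genes, deviations of same-numbered arrays correlated at 0.48 between the wild type and the eos1 mutant. The correlation was -0.34 between the wild type and the izh2 mutant and 0.09 between the mutants. These values cannot decide the question, since each strain gives only the difference between its own arrays. With the replicate block 426, 1 and 736 genes and 0, 0 and 0 members were called, and IZH4, URA4 and CTT1 passed in the eos1 mutant against the wild type (adjusted p = 0.043, 0.044 and 0.036). With 1 array left out, a lone array is assumed to vary like the other strains.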

Other observations

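The spread of ICY2 between the arrays of the deletion strains was shared by a few other genes, listed here after their values were seen. HSP30, a plasma membrane heat shock protein, was the 1 gene whose eos1 mutant arrays lay farther apart, 12.3-fold, with the first array higher. PIC2, a mitochondrial carrier, differed 3.77-fold between the eos1 mutant arrays and 3.69-fold between the izh2 mutant arrays, with the first array higher in both, and PTR2, the peptide transporter gene, 3.41-fold and 7.84-fold. PTR2 and PIC2 were the other genes that, with ICY2, ranked among the 10 largest differences in both deletions. Between the wild-type arrays the log2 difference, first minus second, was 0.19 for PIC2 and -1.43 for PTR2. ARG1, of arginine synthesis, differed 5.21-fold between the izh2 mutant arrays.

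Beside YOR387C, the gene PHR1, for the photolyase that repairs ultraviolet damage, was called between the mutants (1.37 on the log2 scale, adjusted p = 0.038, limma). It missed the threshold after median centring (adjusted p = 0.088) and quantile normalization (0.74, adjusted p = 0.20), without chromosome II genes (adjusted p = 0.065), and when the first eos1 mutant array (adjusted p = 0.29) or either izh2 mutant array (adjusted p = 0.069 and 0.31) was left out. YOR387C lay near background on the arrays of the mutants, at 0.44 to 1.22 times it.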
